A study of Mus musculus with 35 samples.

Results

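The growth factors midkine (*Mdk*) and pleiotrophin (*Ptn*) and 6 genes for receptors that bind them (*Ptprz1*, *Ptprs*, *Alk*, *Sdc1*, *Sdc3* and *Sdc4*) were followed across the cell types of the E14.5 mouse brain. The 8 genes were taken by name from the 53465 genes of the bulk RNA-seq table, and 7 of them from the 21548 genes of the single-cell tables, which do not list *Alk*. Neural, mural (pericyte and smooth muscle) and endothelial cells and microglia had been sorted from dissociated wild-type E14.5 brains. Bulk RNA-seq covered 12 libraries, and the study names 3 wild-type brains for them. Each label holds a population and a number, with 1 library per population for each number, and the number was taken to name the brain. Labels start with N for neural, Mu for mural, Ec for endothelial and Mi for microglial libraries (Mu-343), and values are given in the order of the brains' numbers. Single cells of the same 4 sort gates were sequenced on 3 wild-type plates (11 libraries) with mCEL-Seq2, which counts transcripts near their 3′ end by molecular identifiers. The mural gate took cells with high PDGFRβ and the endothelial gate cells positive for PECAM1. Neural cells were negative for the sorted markers. The single-cell table names the microglia gate as CD41-positive with medium CD45, whereas the study describes CD11b with CD45. RNA and libraries of the neural population were made with other kits (Qiagen mini, TruSeq) than those of the other 3 populations (miRNeasy Micro, SMART-Seq v4, Nextera XT), so neural identity and kit cannot be told apart in the bulk data. Libraries of *Mof* knockout brains were not analysed here.

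Midkine and pleiotrophin are the 2 members of a small family of secreted, heparin-binding growth factors and are abundant in the embryonic brain. Both bind the sulfated sugar chains of proteoglycans. PTPRZ1 is a receptor-type tyrosine phosphatase carried as a chondroitin sulfate proteoglycan by neural progenitors and glia, and its ligands inhibit the phosphatase. PTPRS is a phosphatase of the LAR family that binds heparan and chondroitin sulfate. ALK is a receptor tyrosine kinase of developing neurons for which both factors have been proposed as ligands. Syndecans 1, 3 and 4 (*Sdc1*, *Sdc3*, *Sdc4*) are transmembrane heparan sulfate proteoglycans, of which syndecan-3 is the form best known from neurons.

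The stretches upstream of the start sites of *Ptn*, *Ptprz1* and *Ptprs* are shown because these genes carried the contrast between the ligand highest in mural cells and the receptors highest in neural cells. They are printed 5′ to 3′ on the strand of the gene from the RefSeq promoter table of GRCm38.p6, without bases that lie inside the GENCODE gene. The *Ptn* stretch is chr6:36810221-36810429 on the minus strand, the *Ptprz1* stretch chr6:22875252-22875501 on the plus strand and the *Ptprs* stretch chr17:56476484-56476730 on the minus strand. Capitals mark GC boxes (GGGCGG, or CCGCCC on the other strand) and the E-box CACGTG, which reads the same on both strands.
Ptn: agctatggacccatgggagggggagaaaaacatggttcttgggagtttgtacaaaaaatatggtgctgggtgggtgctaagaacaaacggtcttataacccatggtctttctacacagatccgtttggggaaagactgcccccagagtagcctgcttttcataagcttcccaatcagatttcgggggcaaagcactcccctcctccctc
Ptprz1: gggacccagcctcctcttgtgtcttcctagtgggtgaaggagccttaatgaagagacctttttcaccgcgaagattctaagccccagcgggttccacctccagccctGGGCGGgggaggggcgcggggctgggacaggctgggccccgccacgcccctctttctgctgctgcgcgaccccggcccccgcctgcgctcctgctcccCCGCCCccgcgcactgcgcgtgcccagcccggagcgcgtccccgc
Ptprs: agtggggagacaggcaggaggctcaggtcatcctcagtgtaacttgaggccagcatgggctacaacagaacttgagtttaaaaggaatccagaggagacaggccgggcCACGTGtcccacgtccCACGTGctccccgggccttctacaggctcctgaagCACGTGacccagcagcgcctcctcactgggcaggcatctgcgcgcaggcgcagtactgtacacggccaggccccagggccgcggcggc
*Ptprz1* held 2 GC boxes, *Ptprs* 3 E-boxes and no GC box, and the *Ptn* stretch neither motif. Over the full 250 bases before the RefSeq start, *Ptprz1* held 22, *Ptprs* 15 and *Ptn* 5 CpG dinucleotides. Among 32851 RefSeq promoters of that length 32.7% held a GC box and 6.02% an E-box, the median was 6 CpG dinucleotides, and 49.6% held no more of them than *Ptn*. RefSeq gives *Ptprs* a second start at position 56462221, inside the gene, whose 250 bases held 3 GC boxes and no E-box. A match of letters is a description of the sequence and not a binding site. The table matched 7 of the 8 genes. *Mdk* lies on chromosome 2, from 91929805 to 91932297 on the minus strand of GRCm38. *Ptn* (36714929 to 36810220) and *Ptprz1* (22875502 to 23052916) both lie on chromosome 6. *Ptprs* (56412426 to 56476483) and *Alk* (71868972 to 72604627) lie on chromosome 17, *Sdc1* (8771323 to 8793715) on chromosome 12, *Sdc3* (130792537 to 130826319) on chromosome 4 and *Sdc4* (164424247 to 164443887) on chromosome 2. All 8 are annotated as protein-coding. Exons of *Sdc3* share 415 and 48 bases with 2 antisense genes, and the sources do not state whether reads were counted by strand, so *Sdc3* reads in the bulk data may include antisense transcripts.

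The 12 bulk libraries held 17638358 to 98414914 reads on genes, and the deposited values were these reads divided by 1 factor per library, called normalized counts here. Each population was high in its own markers. The summed endothelial list (*Pecam1*, *Cdh5*, *Cldn5*, *Kdr*, *Cd93*) was 142574 to 159138 normalized counts in endothelial libraries and at most 1520.3 in the others, and the microglia list (*C1qa*, *C1qc*, *Ptprc*, *Itgam*, *Cx3cr1*, *Csf1r*) at least 183035 in microglia and at most 111 elsewhere. The mural list (*Pdgfrb*, *Rgs5*, *Kcnj8*, *Abcc9*, *Vtn*) was at least 690401 in mural libraries and at most 6962 elsewhere. The neural list (*Tubb3*, *Dcx*, *Stmn2*, *Nes*, *Sox2*, *Pax6*) was 90778 to 98989 in neural libraries and still 6274 to 15340 in the other 9, where *Nes*, which vascular cells also express, made up most of it in endothelial libraries. The summed fibroblast list was highest in mural libraries (3565 to 4954), mostly from *Col1a2* with a mean of 3469, while *Pdgfra* was 0.313 there and 151 in neural libraries and *Dpt* was at 0 in all 12. Genes of border macrophages summed highest in microglia (8921 to 11743), and globin and other erythroid genes in endothelial and neural libraries (12983 to 33604 and 8772 to 11485). The part of these other cells in the results below was not tested, and in bulk libraries fewer cells of a type and less RNA per cell cannot be told apart.

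*Mdk* was highest in mural cells. Its normalized counts were 5311, 6209 and 4600.4 in the mural libraries, 3041, 2979 and 3244 in the neural ones, 1566, 798 and 593 in the endothelial ones and 719, 1022 and 783 in microglia. The mural libraries all lay above the other 9, the neural libraries lay above all endothelial and microglial ones, and the last 2 groups overlapped. The mean was 5373 ± 806 (SD, n = 3) in mural and 3088 ± 139 in neural cells, 1.74 times as high in mural cells, and 986 ± 513 in endothelial cells and 841 ± 160 in microglia. Against the mean of the other 3 populations *Mdk* was higher in mural cells by 2.01 ± 0.25 (log2 difference ± SE; limma adjusted p = 9.88e-05) and in neural cells by 0.96 ± 0.25 (limma adjusted p = 0.00566), and it was lower in endothelial cells and in microglia, by -1.40 and -1.56. An exact permutation test of the 3 mural against the 9 other libraries gave a two-sided p of 0.00909, the smallest that 3 against 9 can give. The same exact test did not pass for *Mdk* in neural cells (0.236), endothelial cells (0.118) or microglia (0.0727), none of which lay wholly above or below the other 9 libraries. Mural and neural libraries differed by -0.79 ± 0.30 for neural minus mural *Mdk* (limma adjusted p = 0.0451). That call ended with the brain as a block (limma adjusted p = 0.0526), without a minimum level (0.0664) and without any 1 neural, mural or microglial library or Ec-343 (0.0504 to 0.129), at a difference of -0.68 to -0.90.

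*Ptn* showed the same order at a wider range. Mural libraries held 18458, 20869 and 20921 normalized counts of *Ptn*, neural libraries 7123, 7608 and 7608, endothelial libraries 452, 891 and 594 and microglia 529, 578 and 204. The mural and the neural libraries did not overlap with each other or with the rest, while endothelial libraries and microglia overlapped. The *Ptn* mean in mural cells, 20082 ± 1407, was 2.70 times that in neural cells (7446 ± 280), 31.1 times that in endothelial cells (646 ± 224) and 46.0 times that in microglia (437 ± 203; SD, n = 3 each). Against the other 3 populations the log2 difference of *Ptn* was 4.03 ± 0.29 in mural cells (limma adjusted p = 2.47e-06) and 2.13 ± 0.29 in neural cells (limma adjusted p = 8.79e-05), and -2.65 and -3.51 in endothelial cells and microglia, both also past the threshold. The exact permutation test gave p = 0.00909 for *Ptn* in mural cells and 0.0364 in microglia, but did not pass in neural (0.182) or endothelial cells (0.155). Between mural and neural cells alone *Ptn* differed by -1.43 ± 0.36 for neural minus mural (limma adjusted p = 0.0058).

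**Figure D1:**
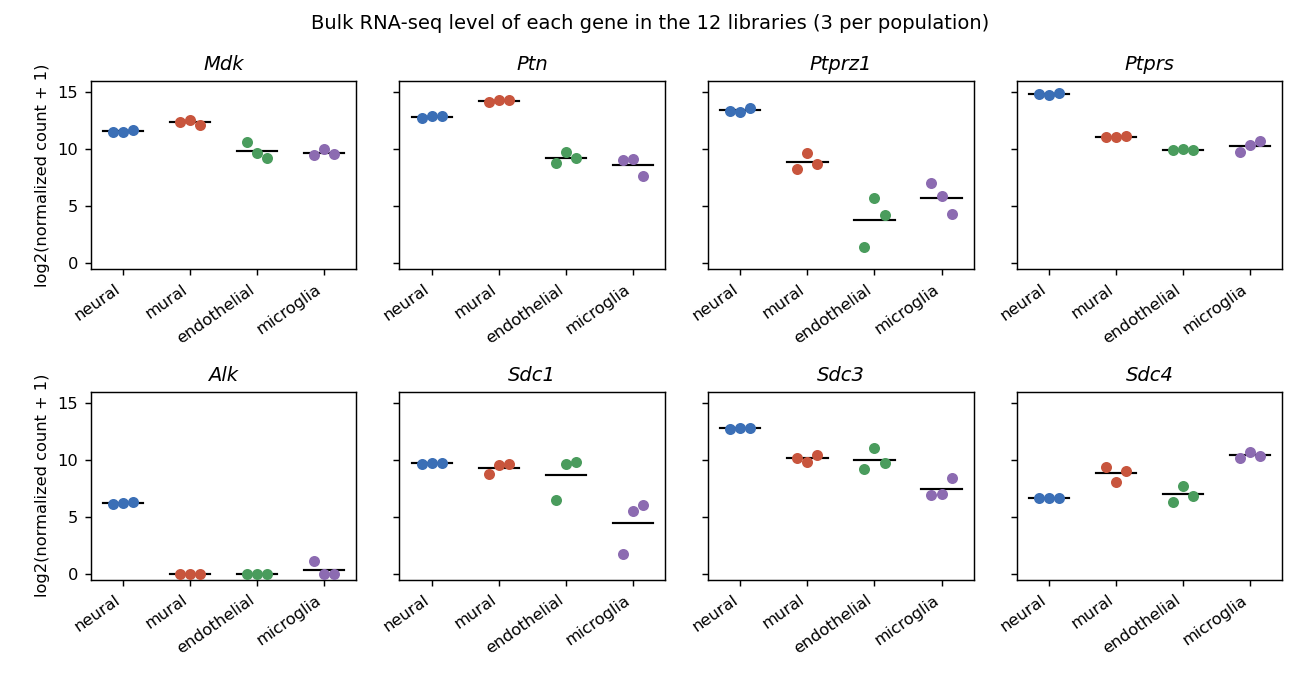
Normalized counts of the 8 genes as log2(normalized count + 1), with 1 point per bulk library in the order of the brains' numbers and a line at the mean of the log2 values. *Mdk* and *Ptn* are highest in mural libraries, *Ptprz1*, *Ptprs*, *Alk* and *Sdc3* in neural libraries and *Sdc4* in microglia.

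The receptor phosphatases were highest in neural cells. *Ptprz1* stood at 10407, 10078.5 and 12432 normalized counts in the neural libraries, at 312, 835 and 416 in mural libraries, at 1.77, 53.9 and 18.1 in endothelial libraries and at 128, 60.5 and 18.9 in microglia. The neural libraries lay far above the others, the mural libraries came next without overlap, and endothelial cells and microglia overlapped. The neural mean of *Ptprz1*, 10973 ± 1275 (SD, n = 3), was 21.0 times the mural, 158 times the microglial and 446 times the endothelial mean. Its log2 difference from the other 3 populations was 7.25 ± 0.80 (limma adjusted p = 1.69e-05). The exact permutation test gave p = 0.00909 for *Ptprz1* in neural cells, 0.0182 in endothelial cells, 0.309 in microglia and 0.645 in mural cells. In mural cells the log2 difference was 1.23 ± 0.80 and not past the threshold (limma adjusted p = 0.24). Among the 3 populations made with the same kits the high neural level leaves the average. There *Ptprz1* in mural cells was 4.11 above the mean of endothelial cells and microglia (limma adjusted p = 0.0127). The lower level of *Ptprz1* in microglia (-2.96) was lost against mural and endothelial cells alone (-0.61, limma adjusted p = 0.685) and without Mi-346 (0.0706). Beside this, the means of the neural list in mural libraries were 489 normalized counts for *Dcx*, 1109 for *Tubb3*, 536 for *Stmn2*, 286 for *Sox2*, 541 for *Pax6* and 5496 for *Nes*, against 34247, 31995, 8736, 4440.2, 3797.5 and 11009.9 in neural libraries. In microglia, where *Ptprz1* had a mean of 69.2, *Dcx* was 591, *Tubb3* 1184, *Sox2* 65.2 and *Pax6* 85.9, and the part of these cells in the mural level of *Ptprz1* was not tested.

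*Ptprs* reached 30356, 27363 and 32613 normalized counts in the neural libraries. It was 2199, 2116 and 2326 in mural libraries, 998, 1072 and 969.8 in endothelial libraries and 865, 1374 and 1720 in microglia. Neural libraries lay above all others, mural libraries above all endothelial and microglial ones, and microglia spanned the endothelial range. The neural mean of *Ptprs* was 13.6 times the mural, 22.8 times the microglial and 29.7 times the endothelial mean, with a log2 difference of 4.41 ± 0.17 from the other 3 populations (limma adjusted p = 8.63e-09). Since the neural level enters that average, *Ptprs* in mural cells was 0.61 below the mean of the other 3 (log2 difference -0.61, limma adjusted p = 0.0143), but 0.96 above the mean of endothelial cells and microglia alone (limma adjusted p = 0.011). *Ptprs* in microglia was lower by -1.68 against the other 3 and by -0.24 against mural and endothelial cells alone, where it did not pass (limma adjusted p = 0.473). The exact permutation test gave p = 0.00909 for *Ptprs* in neural cells, 0.0364 in endothelial cells, 0.764 in mural cells and 0.227 in microglia. Without Mu-343 the mural difference from the other 3 no longer passed (limma adjusted p = 0.0547).

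*Alk* was read in neural libraries and almost nowhere else. Its neural normalized counts were 72.1, 74.2 and 77.4, from 54, 134 and 293 reads. All 3 mural and all 3 endothelial libraries were at 0, and microglia held 1 read in a single library. Against a floor of 3 reads per library the neural mean of 74.6 ± 2.67 (SD, n = 3) was at least 21.8-fold higher than in mural cells and at least 14.03-fold higher than in endothelial cells. The 2 genes for the ALK ligands, *Alkal1* and *Alkal2*, had means of 0.621 and 1.44 normalized counts in neural libraries and were too low to test in any population.

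The 3 syndecans followed 3 patterns. *Sdc3* was 6979, 7034 and 7343 normalized counts in neural libraries, 1196, 921 and 1414 in mural libraries, 601, 2102 and 854 in endothelial libraries and 119, 130.4 and 349 in microglia. Neural libraries were the highest and microglia the lowest without overlap, and mural and endothelial libraries overlapped with means of 1177 ± 247 and 1186 ± 804. The log2 difference of *Sdc3* was 3.58 ± 0.39 in neural cells (limma adjusted p = 1.59e-05) and -3.53 ± 0.39 in microglia (limma adjusted p = 2.79e-05). Among the populations with the same kits, where the neural level leaves the average, *Sdc3* in mural cells passed as well. It was 1.45 above the mean of endothelial cells and microglia (limma adjusted p = 0.046), while mural minus endothelial cells was 0.18 (limma adjusted p = 0.831).

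*Sdc4* ran the other way, with 1165, 1727 and 1351 normalized counts in microglia, 667, 271 and 540.1 in mural libraries, 81.5, 217 and 116 in endothelial libraries and 98.8, 102 and 98.8 in neural libraries. Microglia did not overlap with any other population, and their mean of 1414 ± 286 (SD, n = 3) was 14.2 times the neural one. *Sdc4* was higher in microglia by 2.94 ± 0.35 (limma adjusted p = 4.53e-05) and lower in neural cells by -2.11 ± 0.35 (limma adjusted p = 0.000322). For *Sdc4* the exact permutation test gave p = 0.00909 in microglia and did not pass in neural cells (0.0636). Its mural difference of 0.81 ± 0.35 did not pass (limma adjusted p = 0.0819), but did without Mu-343 (limma adjusted p = 0.0238) and without Ec-343 (0.0275).

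*Sdc1* was lowest in microglia, where the libraries held 2.38, 45.1 and 66.7 normalized counts. It was 825, 833 and 869.7 in neural libraries, 450.5, 758 and 795 in mural libraries and 92.1, 805 and 931 in endothelial libraries. The library numbered 340 was the lowest in each of the 4 populations. The other 3 populations overlapped apart from neural above mural, and microglia lay below all 9 other libraries. The log2 difference of *Sdc1* in microglia was -4.79 ± 0.89 (limma adjusted p = 0.00121). In neural cells it was 2.23 ± 0.89 and close to the threshold (limma adjusted p = 0.0479), which it lost without any 1 neural or mural library or Ec-340 (limma adjusted p = 0.0529 to 0.119). For *Sdc1* the exact permutation test gave p = 0.00909 in microglia and did not pass in neural cells (0.1).

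**Figure D2:**
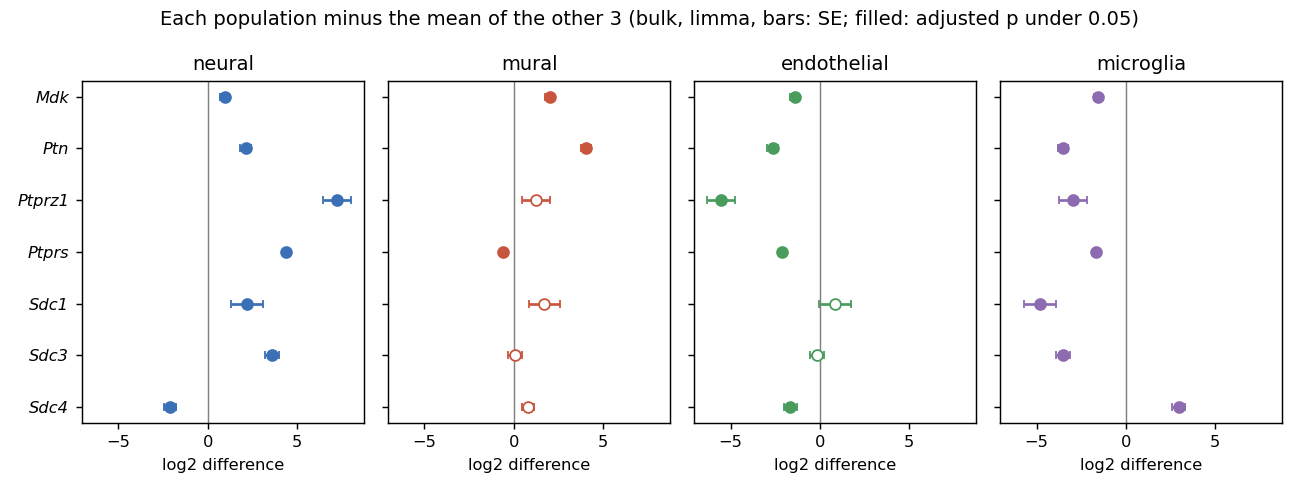
Log2 difference of each population from the mean of the other 3 in the bulk libraries, with bars for the SE of the limma fit and filled points for an adjusted p under 0.05. *Alk*, which was at 0 in the mural and endothelial libraries, is left out, and the largest difference drawn is the 7.25 of *Ptprz1* in neural cells.

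All 8 genes passed the minimum mean of 10 normalized counts, *Alk* only through its neural libraries. The calls of *Alk* for neural cells, counted below, are therefore not independent of that minimum. The counts of calls have to be read against how many of the 19765 tested genes differed. For neural cells 8 of 8 members were called (7 higher, 1 lower), against 64.2% of all genes. For mural cells 4 of 8 were called against 42.0%, in endothelial cells 6 of 8 (all lower) against 42.1% (22.4% lower) and in microglia 8 of 8 (7 lower) against 45.7% (22.3% lower). The *Alk* calls outside neural cells are included in these counts, though edgeR and DESeq2 on the recovered reads did not make them. Between pairs, 7 of 8 members differed for neural against mural cells (54.6% of all genes), 6 for neural against endothelial cells (57.7%) and 8 for neural cells against microglia (59.8%). For mural against endothelial cells 5 were called (27.8%), all higher in mural cells, namely *Mdk*, *Ptn*, *Ptprz1*, *Ptprs* and *Sdc4*. For mural cells against microglia 7 were called (38.0%), of which *Sdc4* was the 1 higher in microglia, and for endothelial cells against microglia 3 were called (32.4%), with *Sdc1* and *Sdc3* higher in endothelial cells and *Sdc4* in microglia. *Ptprz1* between mural cells and microglia passed with all libraries (3.14, limma adjusted p = 0.0259), but not without Mu-343, Mu-346, Mi-343 or Mi-346 (0.0524 to 0.102) or with the same kits alone (0.0625). *Sdc4* in the same pair missed it without Mi-343 (limma adjusted p = 0.0512).

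Per kilobase of exon, which allows genes to be compared with each other, both ligands exceeded all 6 receptors in mural cells. *Ptn* stood at 5850 ± 410 normalized counts per kilobase there and *Mdk* at 4059 ± 609, while the highest receptors by this length, *Sdc3*, *Sdc4* and *Sdc1*, stood at 197 ± 41.2, 193 ± 79.5 and 175 ± 49.6 (SD, n = 3 each). In neural cells *Mdk* (2332 ± 105), *Ptn* (2169 ± 81.6) and *Ptprs* (2009 ± 176) were near each other per kilobase, followed by *Sdc3* at 1189 ± 32.8 and *Ptprz1* at 770.3 ± 89.5. In endothelial cells *Mdk* led with 744 ± 388, and in microglia *Mdk* (636 ± 121) and *Sdc4* (555 ± 112) overlapped. The ratio of *Ptn* to *Mdk* per kilobase was 1.34, 1.30 and 1.75 in the mural libraries and 0.903, 0.985 and 0.904 in the neural ones. It was 0.111, 0.431 and 0.387 in endothelial libraries and 0.284, 0.218 and 0.1 in microglia, so that the mural libraries did not overlap with any other population. With the length of the longest transcript in place of all exons, *Ptprs* in neural cells stood at 4393 ± 384 per kilobase and above *Mdk* (2930 ± 132) and *Ptn* (2911 ± 109), so the order of the receptor and the ligands there depends on the transcript assumed. In mural cells both ligands stayed above the receptors by that length (*Ptn* 7851 ± 550.2, *Mdk* 5098 ± 765), but *Ptprs* became the highest receptor at 323 ± 15.4, above *Sdc3* at 237 ± 49.6.

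**Figure D3:**
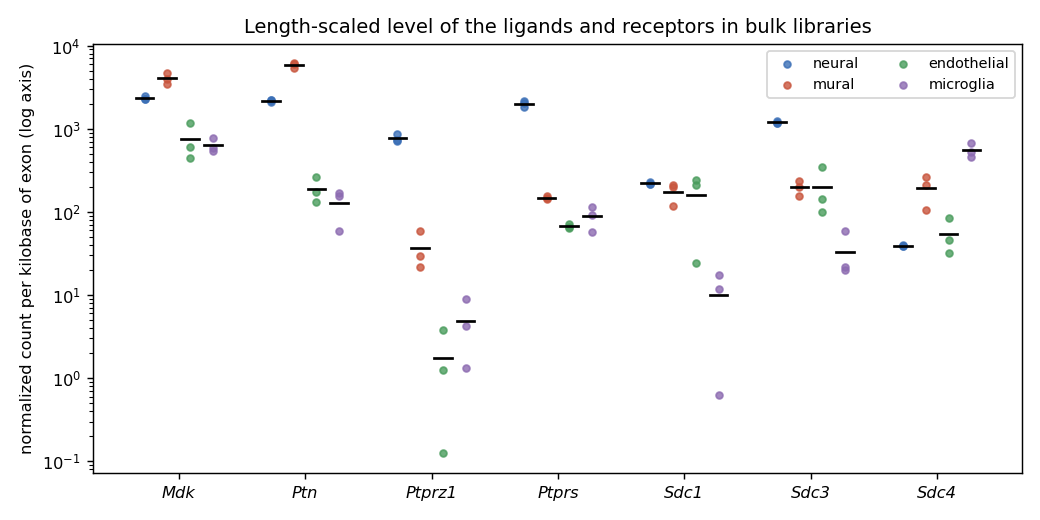
Normalized counts per kilobase of exon in each bulk library (log axis), with a line at the mean of 3. In mural libraries both ligands lie above every receptor, and in neural libraries *Mdk*, *Ptn* and *Ptprs* have means between 2009 and 2332.

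The genes whose log2 levels ran most closely with each member over the 12 libraries are given as a description. For *Mdk* these included *Abi2* (Pearson r = 0.968) and *Gucy1a2*, a subunit of soluble guanylate cyclase (0.963), and for *Ptn* *1700105P06Rik* (0.98), *Vgll3* (0.98) and the glutamate receptor gene *Grm3* (0.979). *Mdk* and *Ptn* correlated with each other at 0.939. *Ptprz1* ran with *Gng3* (0.976), *Msantd4* (0.974) and *Map1a* (0.972), and *Ptprs* with the neuregulin receptor gene *Erbb4* (0.989), *Clstn1* (0.987) and *Syt11* (0.986). The nearest genes to *Alk* were *Ptprn2*, *Chst8* and *Fam189a1*, each at 0.999 or above, which like *Alk* were at 0 in all mural and endothelial libraries. *Sdc1* ran with *Brd3os*, *Zfp9* and *Klf9* (0.965 to 0.969), *Sdc3* with *Sh3pxd2b*, *Hsd17b7* and *Phlpp1* (0.979 to 0.993) and *Sdc4* with *Sde2*, *Camk1* and *Dock10* (0.973 to 0.984). All of them were taken from the 19765 tested genes, and the 12 points of each correlation share 4 populations.

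In the single cells, 686 wells of the 4 gates held more than 1500 transcripts, namely 123 neural, 210 mural, 225 endothelial and 128 microglial cells with median depths of 7717, 6885, 6408 and 10761 transcripts. Plate 3 gave 14, 10, 13 and 6 of them. The list of the own gate led in 119, 195, 209 and 128 cells. Libraries share their well barcodes by design, with 5 on the first 96 barcodes and 6 on the other 96, and no doublet caller was run. Transcripts were summed per plate and gate and scaled to a common total (CPM). Over all plates the fibroblast list, with 4 of its 6 genes present, stood at 329 CPM in the mural gate, in 148 of 210 cells. It was 10.4, 11.4 and 7.30 CPM in the neural, endothelial and microglial gates. The part of such cells in the mural levels below was not tested.

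*Mdk* was highest in the neural gate by this measure. Plates 1, 2 and 3 gave 328, 358 and 383 CPM in neural cells, 234, 238 and 316 in mural cells, 33.4, 45.6 and 57.0 in the endothelial gate and 19.2, 26.4 and 0 for microglia, where plate 3 held 6 cells. No neural plate overlapped with a mural one, and both lay above the other 2 gates. Against the mean of the other 3 gates, *Mdk* was higher by 2.44 ± 0.23 in neural cells (log2, edgeR adjusted p = 1.07e-13) and by 1.72 ± 0.23 in mural cells (edgeR adjusted p = 1.35e-08). The direct difference of neural minus mural cells was 0.54 ± 0.26 and did not pass (edgeR adjusted p = 0.108), while in the bulk libraries it was -0.79 ± 0.30. The 2 assays differ in kits and in the part of the transcript they count, and the difference between them was not tested.

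*Ptn* kept the mural gate on top, with 567, 392 and 343.5 CPM in mural cells and 326, 258 and 98.6 in neural cells on plates 1, 2 and 3. Endothelial cells gave 20.8, 31.5 and 114 CPM, the last from 8 transcripts, and microglia 7.40, 6.22 and 19.7. Mural and neural plates did not overlap. *Ptn* was higher by 3.34 ± 0.27 in mural cells (edgeR adjusted p = 1.17e-15) and by 2.26 ± 0.29 in neural cells (edgeR adjusted p = 3.47e-09), and the mural gate exceeded the neural gate by the fit of the pair (-0.81 ± 0.30 for neural minus mural, edgeR adjusted p = 0.0319). That call was lost without plate 1 (-1.06, edgeR adjusted p = 0.142) and without plate 2 (-0.997, edgeR adjusted p = 0.187), with all wells of the gates (edgeR adjusted p = 0.0578) and in DESeq2 (0.394). The lower *Ptn* level in endothelial cells (-1.51) did not pass without plate 1 (-0.48, edgeR adjusted p = 0.805) or without plate 2 (-1.18, edgeR adjusted p = 0.304) or in DESeq2 (-0.92, adjusted p = 0.422), and that of *Mdk* (-1.59) not without plate 1 (-1.30, edgeR adjusted p = 0.104).

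**Figure D4:**
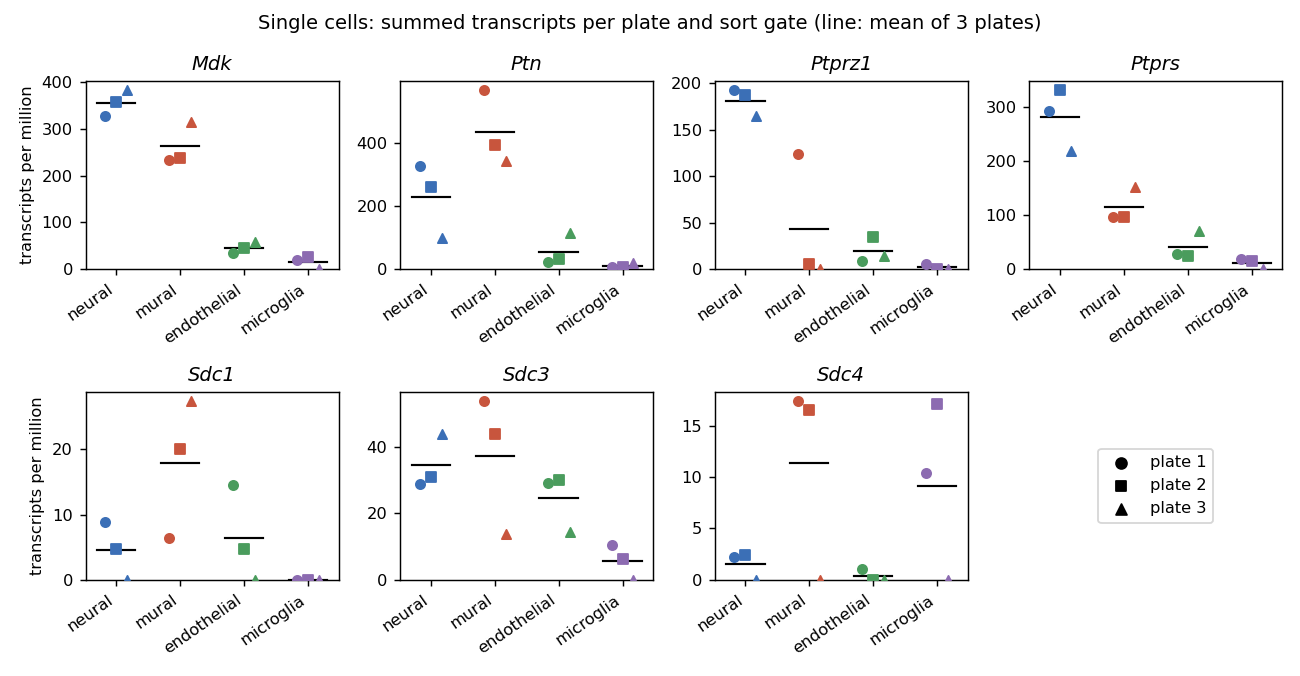
CPM summed per plate and sort gate for the 7 genes in the single-cell tables, with 1 symbol per plate and a line at the mean of 3 plates. *Ptn* is highest in mural cells and *Mdk*, *Ptprs* and *Ptprz1* in neural cells, and 1 mural plate of *Ptprz1* lies at 124.

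*Ptprz1* was 193, 187 and 164 CPM in neural cells on plates 1, 2 and 3, with a log2 difference of 3.51 ± 0.40 from the other gates (edgeR adjusted p = 1.04e-10). The mural gate gave 124, 5.91 and 0 CPM, the endothelial gate 8.34, 34.6 and 14.2 and microglia 5.92, 0 and 0. In the mural gate 73 of 83 *Ptprz1* transcripts came from 3 of 210 cells, up to 61.5 in a single cell. These 3 cells, looked at after their values were seen, held 22 to 132 transcripts of *Fabp7*, a fatty acid binding protein of neural progenitors, none of *Pdgfrb* and 3 transcripts of the mural list in all. The other 207 mural cells held *Ptprz1* at 6.56 CPM. A choice made once the data had been seen kept only cells led by their own gate's list, 195 of them mural. With it the mural level was 4.84 CPM, and the log2 difference went from 1.13 (edgeR adjusted p = 0.0858) to -2.18 (edgeR adjusted p = 0.00615). With all cells kept it was 1.89 and past the threshold without plate 2 (edgeR adjusted p = 0.00888) and -1.14 without plate 1 (0.98). In the endothelial gate 23 of 31 transcripts came from 2 of 225 cells, which also held 8 and 116 transcripts of *Fabp7* together with *Cldn5*, and the other 223 cells stood at 4.88 CPM.

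*Ptprs* was 292, 331 and 219 CPM in neural cells, 96.6, 96.9 and 151 in the mural gate, 28.1, 23.6 and 71.2 in the endothelial gate and 19.2, 15.5 and 0 for microglia. Neural plates lay above all others, and its log2 difference was 2.87 ± 0.23 (edgeR adjusted p = 3.77e-16). The mural difference of 0.81 ± 0.26 (edgeR adjusted p = 0.0153) did not pass without plate 1 (edgeR adjusted p = 0.159) or plate 2 (0.287), and the endothelial one of -1.42 likewise (0.364 and 0.295). Both were also lost in DESeq2 (adjusted p = 0.19 and 0.0885).

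The syndecans were sparse in the single cells. *Sdc3* gave 28.8, 30.8 and 43.8 CPM in neural cells, 53.8, 43.7 and 13.7 in the mural gate, 29.2, 29.9 and 14.2 in the endothelial gate and 10.4, 6.21 and 0 for microglia. The neural and mural plates overlapped, and neural minus mural cells differed by -0.51 ± 0.41 (edgeR adjusted p = 0.377), against 2.62 ± 0.48 in the bulk libraries (limma adjusted p = 0.000828). *Sdc3* was higher in mural cells than in the mean of the other gates (1.07 ± 0.33, edgeR adjusted p = 0.0116), but not without plate 1 (edgeR adjusted p = 0.378) or plate 2 (0.478), and its lower level in microglia (-1.83) not without plate 2 (0.137). *Sdc1* and *Sdc4* did not pass the filter on low counts. *Sdc1* held 6, 23, 17 and 0 transcripts and *Sdc4* 2, 25, 1 and 18 in neural, mural, endothelial and microglial cells. *Sdc4* was thus found mostly in mural cells (16.1 CPM) and microglia (13.1 CPM). The lead of microglia over mural cells in the bulk libraries was not seen in these few transcripts.

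Of the 8 genes 5 could be tested in the single cells. The neural gate called 4 of 5 (all higher) against 39.8% of 9281 genes (22.5% higher, 17.3% lower), the mural gate 4 (all higher) against 21.8% (13.5% higher, 8.30% lower), the endothelial gate 3 (all lower) against 23.3% (16.4% higher, 6.96% lower) and microglia 5 (all lower) against 43.4% (22.2% higher, 21.2% lower). Between neural and mural cells edgeR called 3 of 5, against 33.1% of all genes. The count was 1 without plate 1 and 0 without plate 2, where 2 had an unadjusted p under 0.05, and DESeq2 with all plates called 1.

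At least 1 transcript of *Mdk* was found in 65.9% of neural cells (exact 95% interval 56.8 to 74.2) and 61.4% in the mural gate (54.5 to 68.0), and in 20.9% and 14.8% of the endothelial and microglial gates (15.8 to 26.8 and 9.18 to 22.2). Thinned to 1500 transcripts per cell the shares were 37.4%, 28.6%, 8% and 2.34%. *Ptn* was found in 45.5%, 82.9%, 8% and 6.25% of these gates (22.8%, 49.0%, 1.78% and 0.781% thinned). For *Ptprz1* the shares were 43.1%, 5.24%, 4% and 3.12%, and for *Ptprs* 76.4%, 47.1%, 15.1% and 17.2%. Thinned to 1500 transcripts the *Ptprz1* shares were 19.5%, 2.86%, 1.33% and 0% in the same order. The thinned *Ptprs* shares were 35.8%, 9.52%, 2.22% and 1.56%, and microglia were the deepest cells before thinning. *Sdc1* was found in 0 of 128 microglia. By the exact 95% interval this allows a share of up to 2.84% of cells with a transcript (3 of 128 cells would be 2.34%). It sets no limit on cells that express the gene. Both ligands were found in the same cell in 51.4% of mural cells (exact 95% interval 44.5 to 58.4) and 34.96% of neural cells (26.6 to 44.1), against 2.67% and 0.781% in the endothelial and microglial gates. In the neural gate *Mdk* and *Ptprz1* were found together in 29.3% of cells (21.4 to 38.1) and *Ptn* and *Ptprz1* in 21.95% (14.99 to 30.3). These intervals cover counting error only. The joint shares were not thinned and were not compared with what the single shares of the 2 genes would give, so they are no measure of co-expression.

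Within the neural gate the cells were ranked by marker lists, with 40 cells holding more transcripts of the progenitor list than of the neuron list and 83 the reverse or a tie. The sums of the lists differed by under 3 transcripts in 6 of the 123 cells. On plates 1, 2 and 3 *Mdk* was 534, 755 and 567 CPM on the progenitor side and 212, 219.9 and 198 on the neuron side, without overlap. *Ptn* was 706, 516 and 87.2 against 111, 169 and 110.0, and *Ptprz1* 380.4, 350.0 and 87.2 against 86.7, 130.7 and 242. On plates 1 and 2 both were higher on the progenitor side, whereas plate 3 went the other way with 4 transcripts of each gene in its 4 progenitor-side cells. *Ptprs* went the opposite way on each plate, with 208, 221 and 196 CPM on the progenitor side and 339.9, 369.7 and 242 on the neuron side. *Sdc3* had 2 transcripts in progenitor-side cells and 28 in neuron-side cells. Median depths were 8064 and 7639 transcripts, and no test was made, since the split is a cut through a range and not 2 cell types.

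**Figure D5:**
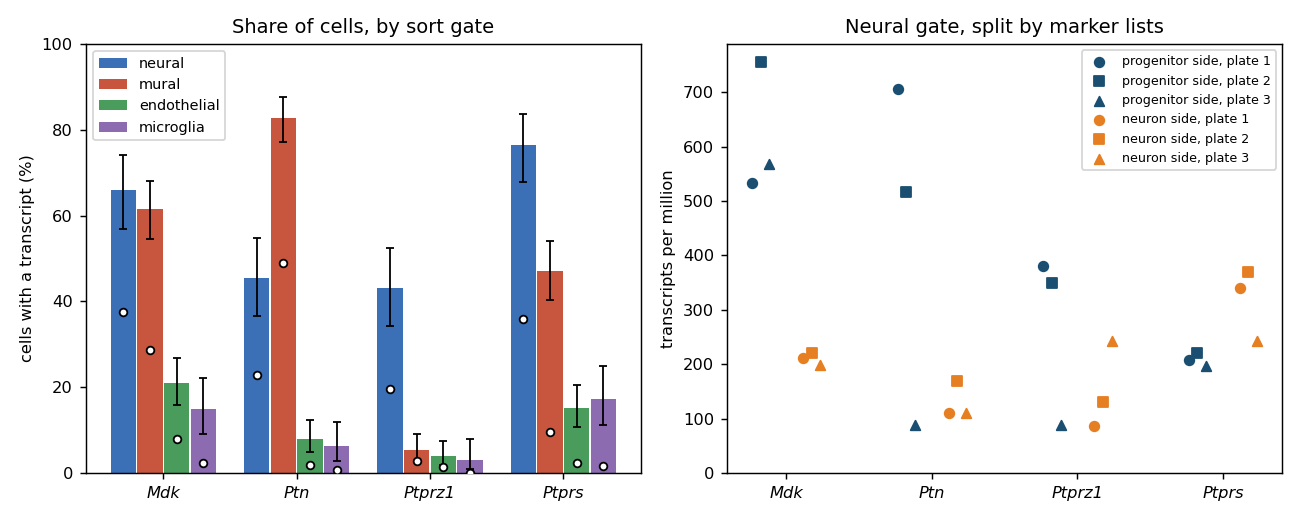
Left, share of cells with at least 1 transcript by sort gate, with bars for the exact 95% interval and open circles for cells thinned to 1500 transcripts. Right, CPM per plate in the neural gate for cells on the progenitor and the neuron side of the marker lists, where *Mdk* is higher and *Ptprs* lower on the progenitor side of each plate.

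Other genes of the pathway were followed as lists, described by counts and medians in the bulk libraries. Of all genes 32.9%, 19.3%, 19.7% and 23.4% were called higher in neural, mural, endothelial and microglial libraries, and 31.2%, 22.7%, 22.4% and 22.3% lower, and the counts below are to be read against these shares. Of 16 tested genes for other reported receptors of the 2 factors, 8 were higher and 8 lower in neural cells, with 7 higher and 1 lower in the mural libraries and 6 higher and 7 lower both for endothelium and for microglia. Their median log2 differences were 0.42, 0.41, -0.43 and 0.01 in the order neural, mural, endothelial and microglial, against 0.09, -0.10, -0.12 and -0.02 over all genes. In the single cells 13 of these receptor genes were tested. In the neural gate 0 were higher and 6 lower (22.5% and 17.3% of all genes), and in the mural gate 7 and 1 (13.5% and 8.30%). The endothelial gate held 7 higher and 4 lower ones (16.4% and 6.96%) and microglia 5 and 3 (22.2% and 21.2%). The integrin genes *Itgb1* and *Itgav*, which encode subunits of integrins proposed as receptors of midkine or pleiotrophin, had their highest means in mural cells (16901 ± 2909 and 6726 ± 839 normalized counts). *Lrp8*, a reelin receptor of the LDL receptor family, was 20004 ± 2909 in endothelial cells and 8535 ± 798 in neural cells but 133 ± 88.8 in mural cells, and *Ncl*, which encodes nucleolin, ranged from 17854 ± 92.5 in neural cells to 28362 ± 3184 in microglia. *Ptprb*, the vascular phosphatase VE-PTP, was 13409.9 ± 3135 in endothelial cells against 9.65 ± 3.14 in neural cells. *Plxnb2* was 9307 ± 2353 in microglia, 8691 ± 661 in neural cells and 1076 ± 159 in endothelial cells, and *Cdh10* was called in every population, at 473 ± 19.2 in neural cells. *Itga4* was 7738 ± 1021 in mural cells and *Ptprg*, the closest relative of *Ptprz1*, 4415 ± 421 in endothelial cells and 2717 ± 95.7 in neural cells, with 26.2 ± 4.21 in microglia. The 2 other LAR-type phosphatases, *Ptprf* and *Ptprd*, were both highest in neural cells (8617 ± 646 and 3991 ± 434) and lowest in microglia, as was called for both.

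Of 16 tested core proteins of other proteoglycans, 13 had higher neural levels, 9 higher mural and 4 higher endothelial ones, and in microglia 0 were higher and 12 lower. Their median differences were 3.18, 2.16, -2.85 and -3.90, or 3.18, 1.79, -2.45 and -3.77 with populations wholly at 0 set to 3 reads. *Agrn* (agrin) was 19918 ± 1402 normalized counts in neural cells and 116 ± 63.2 in microglia, and *Ncan* (neurocan) 16163 ± 1204 in neural cells. *Bgn* (biglycan) was 19025 ± 3264 in mural and 11032 ± 1114 in endothelial cells, and *Cspg4* (NG2), a mural marker, 9043 ± 1200 in mural cells. *Sdc2*, the syndecan outside the 8 genes, was 7926 ± 1933 in mural cells, 288 ± 16.7 in neural cells, 2.84 ± 4.92 in endothelial cells and 1.68 ± 2.91 in microglia. *Hspg2* (perlecan) was highest in endothelial cells (6907 ± 1317), *Gpc6* in mural cells (554 ± 141), and *Dcn*, also a fibroblast gene, was 103 ± 48.2 in mural and 37.2 ± 5.46 in neural cells and at 0 in the other 6 libraries.

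Of 30 tested enzymes that build or trim heparan and chondroitin sulfate, 21 had higher neural levels, 6 higher mural ones and 3 each higher endothelial and microglial ones, with medians of 2.75, -0.64, -0.89 and -0.76 (2.61, -0.64, -0.80 and -0.85 with populations at 0 set to 3 reads). Lower levels were called for 3, 12, 11 and 9 of them in the same order. In the single cells 15 of these enzymes were tested. The neural gate held 5 higher and 5 lower ones (22.5% and 17.3% of all genes), with a median of 0.76. The mural gate held 6 higher and 2 lower ones (13.5% and 8.30% of all genes). *Ndst1*, an N-deacetylase and sulfotransferase, was 3758 ± 157 normalized counts in neural cells and 455 ± 226 in mural cells, whereas its relative *Ndst3* was 4011 ± 682 in mural and 1228 ± 32.3 in neural cells and under 10 in the other populations. The means of *Extl3* and *Ext2* over the 4 populations ran from 1233 ± 455 to 2769 ± 1232 and from 1175 ± 25.9 to 2205 ± 1254. The extracellular sulfatase gene *Sulf2* was 2186 ± 99.6 in neural cells and 182 to 217 elsewhere, *Dse* was highest in mural cells (2877 ± 494) and *Csgalnact1* in endothelial cells (727 ± 118). *Chsy3* was 61.9 ± 39.4 in mural and 34.9 ± 8.41 in neural cells. *Hs6st3*, at 57.3 ± 3.62, was read in neural libraries alone and passed the minimum level only through them.

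All 11 tested genes for other ligands and partners of PTPRZ1 were higher in neural cells, with a median of 3.67, and none was higher in mural cells or microglia, where 6 and 7 were lower. Of these *Ctnnb1*, which encodes beta-catenin, was 36764 ± 708 normalized counts in neural cells and 11803 ± 916 in endothelial cells. *Arhgap35* was 8708 ± 526, *Magi1* 5355 ± 202, *Fyn* 5278 ± 142 and *Git1* 3942 ± 196 in neural cells, and *Magi3* was higher in endothelial cells (2850.4 ± 882) than in neural cells (1105 ± 50.5). In endothelial cells 4 were higher and 3 lower, with a median of -0.42, and the medians were -1.74 in mural cells and -2.04 in microglia (-1.91 and -2.04 with populations at 0 set to 3 reads). In the single cells 4 of 8 tested genes of this list were higher in the neural gate and 4 in the endothelial gate, and 8 of 11 tested proteoglycan core proteins were higher in the mural gate against 4 in the neural gate, where 22.5%, 16.4% and 13.5% of all genes were called higher in the neural, endothelial and mural gates.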

How the data were processed

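The authors deposited bulk values as reads per gene divided by 1 factor per library, a normalized signal, and gave STAR, featureCounts, DESeq2, BWA 0.6.2-r126 and build mm10 in their processing notes, without saying which made which file. Of 124078 values of up to 100 reads, 100% were whole within 0.01 of a read, so reads were recovered. The deposited single-cell values, per the file headers 1 column per barcode, were expected counts corrected for repeated identifiers among 4096, and 100% of values followed that correction. The deposited gate table gives the sort markers of each well in words.

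Gene coordinates came from GENCODE vM21 (GRCm38), and symbols matched 53274 of 53465 identifiers. The library titled P3_11 was taken to be the plate 3 table numbered 12. Bulk values were compared as log2(normalized count + 1) with limma 3.58.1 (trend, no block) in R 4.3.3 over genes with a mean of at least 10, each population against the mean of the other 3 and in 6 pairs. Differences on this scale understate changes of low genes. Cells with more than 1500 transcripts were summed per plate and gate, rounded, and tested with edgeR 4.0.16 (quasi-likelihood, TMM, filterByExpr). Tests were two-sided with Benjamini-Hochberg adjustment over all genes and a threshold of 0.05, and were tested on simulated data. SEs of edgeR are the difference over the root of F. Bulk libraries of 1 number were taken as 1 brain. Their residual correlations between populations ran from -0.05 to 0.08, and a block for brain or plate was an alternative. The 3 wild-type plates were the single-cell replicates, and as their labels do not tie them to separate animals, p-values measure the spread between plates only. The study states a lower number of cells after the same threshold. For each list the 4 genes with the highest mean and those called in every population are named, and the 3 most correlated genes for each member, of which 1 is not reported here. The members and lists were chosen with earlier results of these data known. Alternatives were DESeq2 1.42.0, edgeR on recovered reads, other pseudocounts (0.5, 10) and minimums (none, 50), quantile normalization, the 3 populations with the same kits, cells above 3000 transcripts, all wells, and each library or plate left out. Tables and figures were made in Python 3.11.15 (matplotlib 3.10.9, scipy 1.17.1).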

Additional observations from a re-analysis of the deposited data

Results flagged for a closer look

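Transcripts also appeared under well barcodes that no well of a library used, which lie outside all comparisons above. These barcodes held 36 transcripts of *Mdk*, 32 of *Ptn*, 16 of *Ptprz1* and 12 of *Ptprs*. They make up 3.89% of all *Mdk*, 2.33% of all *Ptn*, 2.67% of all *Ptprz1* and 2.13% of all *Ptprs* transcripts, against 1.83% over all genes. *Sdc1* and *Sdc3* held 1 transcript each there (2.08% and 0.602%) and *Sdc4* held 0.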

How the results depend on the processing

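Of 657 refits of the 32 bulk differences of the 8 genes from the other 3 populations, 630 kept their direction and side of the threshold, and of 176 refits of the 20 single-cell differences 157 did. The *Mdk* and *Ptn* differences of mural and neural cells, bulk and single-cell, and those of *Ptprz1*, *Ptprs* and *Sdc3* in neural bulk libraries, were among those kept under each alternative run for them (the one with the same kits alone holds no neural libraries), bulk *Mdk* in mural cells between 1.90 and 2.62 and *Ptn* between 3.87 and 5.33. Neural *Sdc1* in bulk missed the threshold with a pseudocount of 0.5 (2.26), without a minimum (2.23) and after quantile normalization (1.81), which moved the median of all genes in neural cells from 0.09 to -0.16, and ranged from 1.78 to 2.50 with 1 library left out. *Ptprs* in mural cells reversed to 0.96 with the same kits alone, where the neural libraries leave the average, and endothelial calls went from 8322 to 4633. *Ptprz1* in the mural gate reversed to -2.18 with cells led by their own markers. That choice took the mural gate from 210 to 195 cells, with the 3 cells described above among those left out, and also took cells from the neural and endothelial gates. The cause of this and of other changes was not tested. *Sdc3* in the mural gate was 1.04 with DESeq2 (not past the threshold) and 0.94 to 1.28 with 1 plate left out. With DESeq2 the single-cell calls were 2436, 998, 1052 and 2532 in the neural, mural, endothelial and microglial gates and 1638 between neural and mural cells. With 1 plate left out they ranged from 1508 to 4474, from 739 to 2526, from 717 to 2856, from 1686 to 4762 and from 1050 to 3709, the lowest without plate 1 or 2, which leaves plate 3 with its 43 cells and 1 other plate. DESeq2 gave no adjusted p for *Ptprz1* in single cells. With the brain or plate as a replicate block the calls were 12484, 7906, 8014 and 8675 in bulk and 3920, 2246, 2440 and 4210 in single cells. The block ended the bulk call of *Mdk* between neural and mural cells (0.0526) and made that of *Ptprz1* in the mural gate (1.02, edgeR adjusted p = 0.0456), and that of *Ptprz1* between the mural and endothelial gates (1.27, edgeR adjusted p = 0.0271), and changed no other call of the 8 genes. Of 28 shares of cells 26 left their interval when thinned to 1500 transcripts. At these depths *Sdc1* and *Sdc4* held at most 25 transcripts in a gate and did not pass the filter on low counts. Without that filter *Sdc4* was higher by 2.37 in mural cells (edgeR adjusted p = 0.00178) and by 2.29 in microglia (0.00287), *Sdc1* passed as higher in mural cells (0.00307) and lower in microglia (0.00105), and *Ptprz1* as higher in mural cells (1.23, edgeR adjusted p = 0.00983). *Sdc4* also passed the filter without plate 3.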
